A study of Mus musculus with 24 samples.

Results

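The question was whether the late course of istradefylline went with the same change of gene expression in obstructed left kidneys as in sham-operated ones. It was asked as an interaction, the change between UUO late and UUO vehicle minus the change between sham late and sham vehicle, in 16 of the 24 libraries of the series and over 12882 of 14407 listed genes. Those are the genes with an FPKM (a read count per unit of transcript length and of library depth) of 1 or more in at least 4 of the 16 libraries. All mice were wildtype, the tissue was the whole left kidney, and each of the 4 groups had 4 libraries: UUO (unilateral ureteral obstruction) with late istradefylline, UUO with vehicle, sham surgery with late istradefylline, and sham surgery with vehicle. The early-course groups are used here only for values set side by side. The labels give no dose, day, age or sex, and nothing in them ties a library to an animal, so the p-values measure the spread between these libraries, which may be technical.

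Istradefylline blocks the adenosine receptor encoded by Adora2a, a G protein-coupled receptor that raises cyclic AMP and is found on immune cells, vessels and other cells of the kidney. Ligating a ureter dilates the kidney above it, and inflammation, loss of tubule cells and fibrosis follow. An interaction above 0 means that the log2 difference between late course and vehicle was more positive in UUO kidneys than in sham kidneys. It can come from either surgery, so both differences are given for the genes past the threshold.

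Only 5 genes passed the threshold for the interaction, 0.0388% of those tested (limma, Benjamini-Hochberg adjusted p under 0.05). The interaction was above 0 for Micu3, Zfp708, Appl2 and Nphs1 (0.0311%) and below 0 for Gm28557 (0.00776%). In UUO kidneys alone 3 genes rose with the late course, Micu3, Clec9a and Ckmt1 (0.0233%), and in sham kidneys alone 51 changed (0.396%), of which 50 fell (0.388%). No gene was past the threshold in both surgeries. The interaction count was 2 without sham late replicate 2, 8 without UUO vehicle replicate 2 and 35 without UUO vehicle replicate 4. It was 3 without UUO late replicate 1 or 2, sham late replicate 1 or 4, or sham vehicle replicate 2 or 3, and 1, Micu3, without both UUO late replicate 4 and sham vehicle replicate 2, or without these and UUO vehicle replicate 2. The unadjusted p for the interaction was under 0.05 for 1914 genes, 14.9% of those tested, with 1745 above 0 and 169 below. It was under 0.05 for 1207 genes in UUO kidneys (9.37%), 814 higher (6.32%) and 393 lower (3.05%), and for 2089 genes in sham kidneys (16.2%), 254 higher (1.97%) and 1835 lower (14.2%).

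The interaction was above 0 over most of the transcriptome, so single values are read against that. Its median over all tested genes was 0.14 on the log2(FPKM + 1) scale, made of a median difference of 0.04 in UUO kidneys and -0.09 in sham kidneys. Rescaling each library to the same sum gave a median of 0.22 and 4 called genes above 0 with 0 below, and median-of-ratios scaling gave a median of 0.03. Estimated depth moved with the groups. It was 9400000 to 12850000 fragments in UUO late, 9150000 to 10330000 in UUO vehicle, 7720000 to 8770000 in sham late and 10260000 to 10740000 in sham vehicle libraries. Between 557 and 654 genes were listed at 0 in sham late libraries, against 413 to 484 in sham vehicle libraries. The part of depth in the results was not tested. UUO late replicate 4, sham vehicle replicate 2 and UUO vehicle replicate 2 stood apart from their groups in proximal tubule markers. The summed FPKM of 25 proximal tubule markers was 2710 in that UUO late library, against 5985 to 8626 in the other 3. It was 4995 in that UUO vehicle library, against 8918 to 10587 in the other 3, and 21023 in that sham vehicle library, against 30824 to 32373 in the other 3. Values without the 2 libraries that stand apart leave out UUO late replicate 4 and sham vehicle replicate 2. Those without 3 libraries leave out UUO vehicle replicate 2 as well. Libraries that differed in other markers stayed in these fits. UUO vehicle replicate 1 had 65.8 FPKM of summed podocyte markers, against 83.5 to 91.0 in the other 3. UUO vehicle replicate 3 had 141 FPKM of summed B and plasma cell markers, against 6.27 to 29.3 in the other 3.

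Micu3 had the smallest p. It encodes mitochondrial calcium uptake protein 3, a partner of the channel that lets calcium into mitochondria, and lies at chr8:40307458-40386308 on the plus strand (GRCm38). In the reference annotation transcript Micu3-201 has 15 exons, and Micu3-203 begins at its exon 6, skips exons 7 and 8 and ends in a longer last exon of 1700 bases. The coding stretch around the skip is shown because the 2 transcripts had different patterns over the groups. The span is chr8:40354356-40366178, plus strand, GRCm38, and the capitals mark exons 7 (72 bases) and 8 (39 bases).

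Micu3-201: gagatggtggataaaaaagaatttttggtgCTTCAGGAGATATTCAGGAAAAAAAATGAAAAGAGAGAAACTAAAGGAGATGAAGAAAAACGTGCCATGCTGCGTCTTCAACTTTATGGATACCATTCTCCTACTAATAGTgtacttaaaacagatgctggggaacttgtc
Micu3-203: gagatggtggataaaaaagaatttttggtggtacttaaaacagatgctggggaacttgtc

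As a gene, Micu3 had 2.61, 2.46, 2.49 and 3.25 FPKM in UUO late libraries and 0.515, 0.649, 0.518 and 0.603 FPKM in UUO vehicle libraries. It had 0.669, 0.72, 0.93 and 0.717 FPKM in sham late libraries and 0.92, 0.816, 0.844 and 0.637 FPKM in sham vehicle libraries. The UUO late libraries stood above all 12 others, while the sham groups overlapped. The interaction was 1.27 (SE 0.13; limma, adjusted p = 0.000616), the rise in UUO kidneys was 1.23 (adjusted p = 8.66e-06), and the sham difference was -0.04 (adjusted p = 0.887). The gene passed the filter on low values through the UUO late libraries alone, and it was not tested when 1 FPKM was required in 8 libraries.

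Transcript Micu3-203 held the gene-level difference. Micu3-203 was listed at 4.59, 4.91, 5.19 and 7.19 FPKM in UUO late libraries and at 0 in every library of UUO vehicle, sham late and sham vehicle. Micu3-201 did not share that pattern, with 2.03, 1.31, 1.01 and 0.909 FPKM in UUO late and 1.35, 1.58, 1.42 and 1.67 FPKM in UUO vehicle libraries. It had 1.83, 1.83, 2.50 and 1.95 FPKM in sham late and 2.40, 2.14, 2.30 and 1.52 FPKM in sham vehicle libraries. The early-course libraries, which share the vehicle libraries as controls, had Micu3-203 at 0 in all 4 UUO early libraries and at 6.27, 4.34, 5.70 and 6.75 FPKM in sham early libraries. Of 27011 listed transcripts, Micu3-203 was the only one over 0.5 FPKM in all 8 libraries of UUO late and sham early and at 0 in the other 16, and this pattern was looked for after its values had been seen. A 0 in such a table can be a failed estimate, and whether it is one here was not tested.

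**Figure D1:**
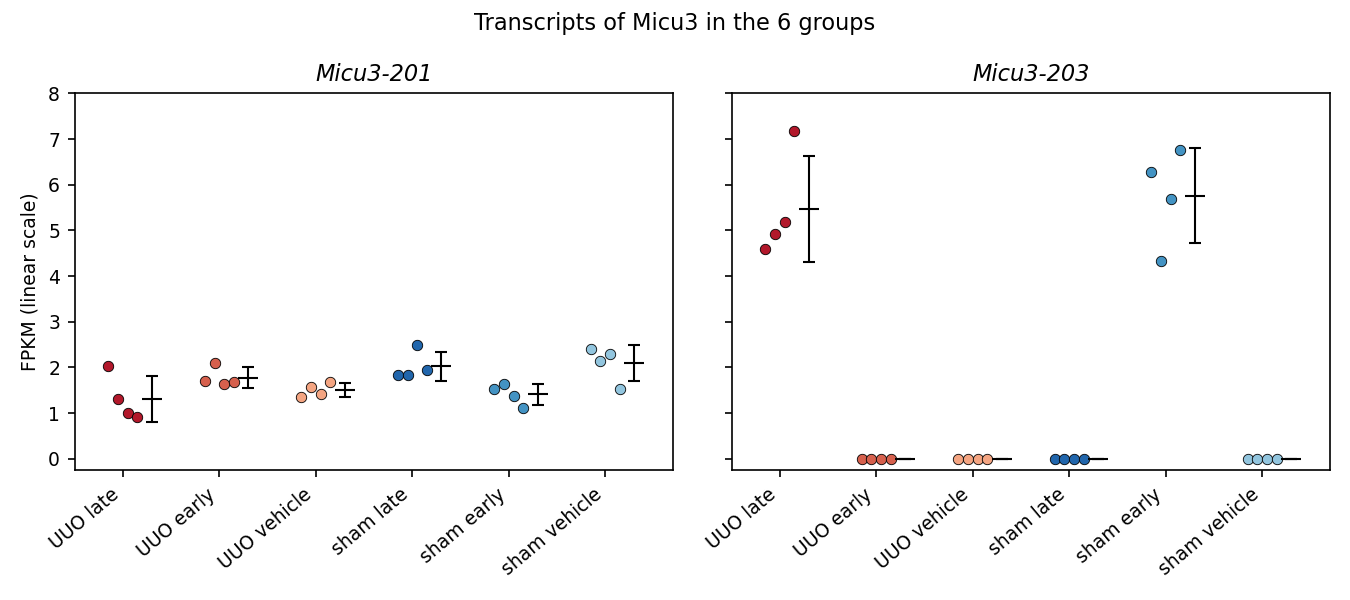
FPKM (linear axis) of transcripts Micu3-201 and Micu3-203 in each library of all 6 groups, with bars for mean and SD (n = 4). Micu3-203 sits between 4.34 and 7.19 FPKM in UUO late and sham early libraries and at 0 in the other 4 groups, while Micu3-201 is present in all 6 groups.

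Zfp708 and Gm28557 overlap at 1 locus. Zfp708, a zinc finger protein gene, lies at chr13:67069399-67097976 on the minus strand, inside the predicted gene Gm28557 at chr13:67069399-67108604 on the same strand (GRCm38), so reads can be shared between them and both values are uncertain. Zfp708 had 1.44, 1.27, 0 and 0.967 FPKM in UUO late libraries and was listed at 0 in all 4 UUO vehicle libraries. It was listed at 0 in all 4 sham late libraries as well, and had 1.84, 1.89, 1.05 and 1.60 FPKM in sham vehicle libraries. Its interaction was 2.22 (SE 0.30; limma, adjusted p = 0.0137), it fell in sham late kidneys (-1.36, adjusted p = 0.0155), and its UUO difference was 0.86 (adjusted p = 0.208). Zfp708 too had a transcript that switched between groups. Gm28557 showed the mirror image, with 0.361, 0.469, 0.908 and 0.624 FPKM in UUO late and 1.15, 0.974, 1.11 and 0.903 FPKM in UUO vehicle libraries. It had 1.10, 1.34, 1.30 and 1.10 FPKM in sham late and 0.431, 0.519, 0.618 and 0.467 FPKM in sham vehicle libraries. Its interaction was -0.92 (SE 0.14, adjusted p = 0.0331), with a rise of 0.55 in sham late kidneys (adjusted p = 0.0351) and a UUO difference of -0.37 (adjusted p = 0.257).
Without the 2 libraries that stand apart, the interaction of Zfp708 was 2.13 (limma, adjusted p = 0.0783) and that of Gm28557 was -0.93 (adjusted p = 0.116). Leaving out 1 library at a time, Gm28557 passed in 3 of 16 fits (without UUO vehicle replicate 2, UUO vehicle replicate 4 or UUO late replicate 3; adjusted p 0.00716 to 0.106 over the 16). With all 24 libraries in the fit the adjusted p was 0.0533 for Zfp708 and 0.0562 for Gm28557. Zfp708 passed the filter on low values through UUO late and sham vehicle libraries alone, where it was high. Gm28557 passed it through UUO vehicle and sham late libraries alone, where it was high. Neither gene was tested when 1 FPKM was required in 8 libraries.

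Appl2 differed on the sham side. It encodes an endosomal adaptor protein that links receptors to their signalling and lies at chr10:83600033-83648738 on the minus strand (GRCm38). It had 6.81, 6.21, 6.82 and 7.16 FPKM in UUO late libraries and 6.03, 6.94, 5.92 and 5.76 FPKM in UUO vehicle libraries. It had 3.60, 3.24, 3.23 and 2.92 FPKM in sham late libraries, all below the 5.75, 6.15, 5.43 and 5.95 FPKM of sham vehicle libraries. The UUO groups overlapped and the sham groups did not. The interaction was 0.80 (SE 0.11; limma, adjusted p = 0.0139), Appl2 fell by 0.68 in sham late kidneys (adjusted p = 0.0041), and the UUO difference was 0.12 (adjusted p = 0.681). No transcript of Appl2 switched between groups. With genes that had a switching transcript left out of the table, Appl2 was the 1 gene still past the threshold. Nphs1 and Gm28557 had no such transcript and stayed in that fit, where they narrowly missed (limma, adjusted p = 0.05008 each). Without sham late replicate 2 the adjusted p was 0.0514, and without the 2 libraries that stand apart the interaction was 0.75 (adjusted p = 0.0783). In the early course, which shares the vehicle libraries, Appl2 had 7.81, 5.80, 5.57 and 6.51 FPKM in UUO early and 4.16, 3.68, 3.96 and 4.51 FPKM in sham early libraries.

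Nphs1 moved in opposite directions in the 2 surgeries. It encodes nephrin, the protein that spans the slit between the foot processes of podocytes, the cells of the glomerular filter, and lies at chr7:30458315-30487223 on the plus strand (GRCm38). It had 3.54, 3.31, 2.89 and 2.91 FPKM in UUO late libraries, all above the 1.78, 2.21, 1.70 and 2.09 FPKM of UUO vehicle libraries. It had 1.39, 0.85, 1.56 and 1.15 FPKM in sham late libraries, all below the 2.00, 2.16, 2.20 and 1.82 FPKM of sham vehicle libraries. The interaction was 0.95 (SE 0.15; limma, adjusted p = 0.0331). Neither surgery passed alone, with 0.50 in UUO kidneys (adjusted p = 0.126) and -0.45 in sham kidneys (adjusted p = 0.0691). When libraries were left out singly, the interaction lay between 0.87 and 1.02 and passed in 5 of 16 fits, those without sham vehicle replicate 4, UUO vehicle replicate 2, UUO vehicle replicate 4, sham late replicate 3 or UUO late replicate 3. The adjusted p ran from 0.0305 to 0.114 over the 16 and was 0.116 without both libraries that stand apart (interaction 0.96). It was 0.0533 with all 24 libraries in the fit and 0.0679 when 1 FPKM was required in 8 libraries. In the early course, with the same vehicle libraries, Nphs1 had 2.06, 2.75, 2.14 and 2.53 FPKM in UUO early and 2.18, 1.24, 2.19 and 1.13 FPKM in sham early libraries.

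At such low levels the log2 values depend on the pseudocount. Over the pseudocounts of 0.1 and 5 the interaction spanned 0.48 to 2.13 for Micu3, 0.63 to 6.83 for Zfp708, 0.47 to 0.96 for Appl2, 0.41 to 1.38 for Nphs1 and -1.88 to -0.28 for Gm28557.

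**Figure D2:**
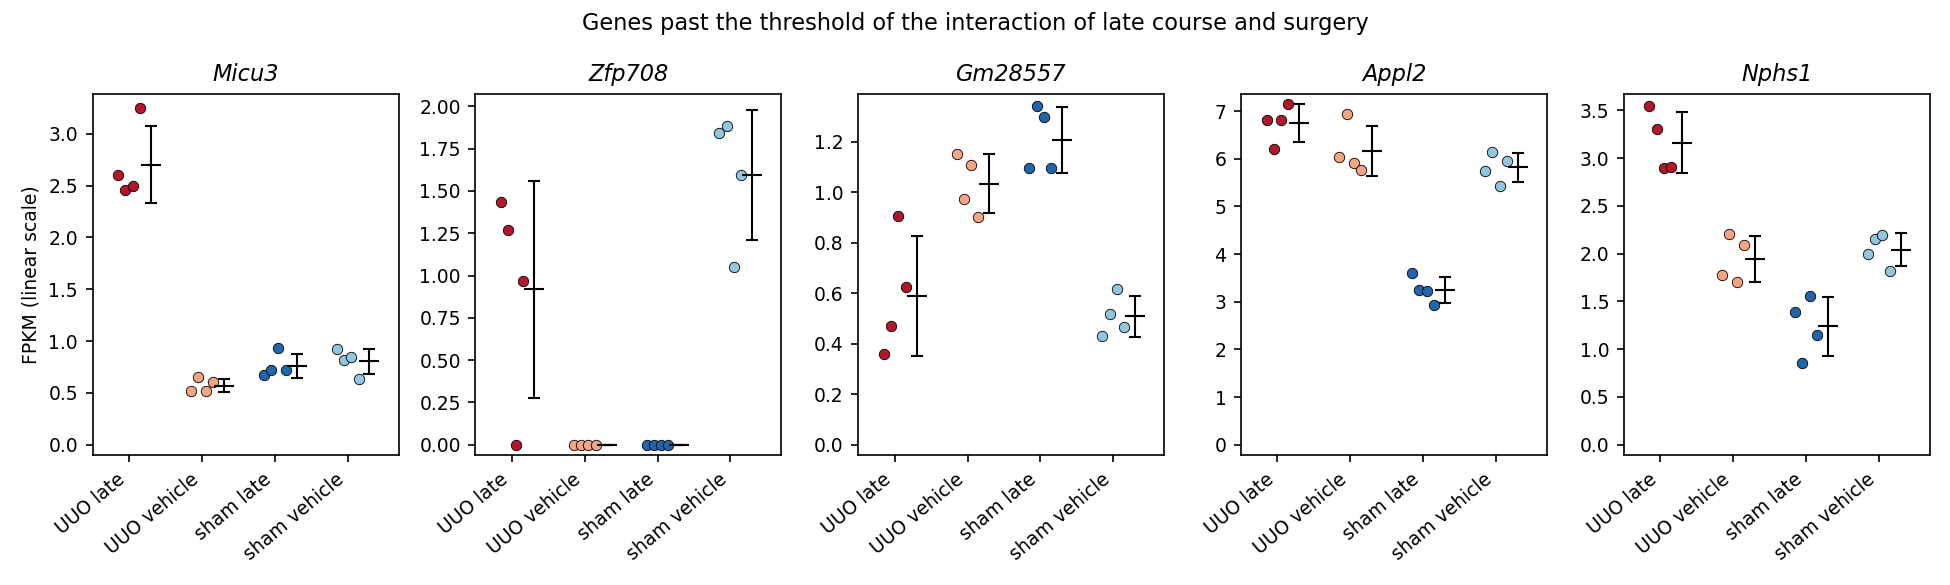
FPKM (linear axis, one scale per gene) in each library of UUO late, UUO vehicle, sham late and sham vehicle for the 5 genes past the threshold of the interaction, with bars for mean and SD (n = 4). Micu3 is high in UUO late alone, Zfp708 and Gm28557 mirror each other, Appl2 is low in sham late, and Nphs1 is high in UUO late and low in sham late.

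The podocyte list had 8 of its 9 genes above the median interaction of all tested genes, which was itself above 0. All 9 genes of the podocyte list were tested. Of these, 1 passed for the interaction, Nphs1, and 6 had an unadjusted p under 0.05 with a value above 0, against 13.5% of all genes. The list's median was 0.95, against 0.14 over all genes, made of 0.45 in UUO kidneys and -0.45 in sham kidneys. Its 9 genes together summed to 111.2, 105.7, 113.4 and 116.6 FPKM in UUO late libraries and 65.8, 87.9, 83.5 and 91.0 FPKM in UUO vehicle libraries. They summed to 39.4, 41.5, 41.4 and 37.9 FPKM in sham late libraries and 66.7, 95.7, 59.5 and 55.8 FPKM in sham vehicle libraries. The groups did not overlap in either surgery. In whole kidney, fewer cells of a type and less RNA per cell cannot be told apart.

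Podxl encodes podocalyxin, the charged coat protein of podocytes, and had 29.9, 34.7, 32.0 and 31.9 FPKM in UUO late and 17.0, 26.4, 24.5 and 26.1 FPKM in UUO vehicle libraries. It had 12.2, 13.8, 14.4 and 13.2 FPKM in sham late and 24.5, 39.5, 17.9 and 19.8 FPKM in sham vehicle libraries, with an interaction of 1.26 (limma, adjusted p = 0.116). Neither pair of groups overlapped, and sham vehicle replicate 2 was the highest of its group.

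Clic3, an intracellular chloride channel gene found in podocytes, had 11.7, 13.2, 17.1 and 11.3 FPKM in UUO late and 4.56, 9.61, 7.57 and 9.03 FPKM in UUO vehicle libraries. It had 4.20, 4.84, 4.88 and 4.66 FPKM in sham late and 6.77, 6.39, 7.66 and 6.04 FPKM in sham vehicle libraries, again with no overlap (interaction 1.20; limma, adjusted p = 0.0986). Cdkn1c, a cell cycle inhibitor of mature podocytes, had an interaction of 1.18 (adjusted p = 0.158). The list did not move as a whole. The interaction was 0.50 for Ptpro, a podocyte tyrosine phosphatase (adjusted p = 0.499), 0.17 for Synpo, which encodes synaptopodin (adjusted p = 0.908), and -0.06 for Wt1, the podocyte transcription factor (adjusted p = 0.934). Relative to all genes the list's median was 0.81, and 0.78 without both libraries that stand apart. That of the adipocyte marker list was higher, at 0.92.

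Promoters were available in the RefSeq table for 4 of 6 genes looked up, and those of Nphs1 and Clic3 are shown because both genes moved in opposite directions in the 2 surgeries without overlap. Each is the 250 bases before the RefSeq start on GRCm38.p6, Nphs1 at chr7:30459808-30460057 (plus strand) and Clic3 at chr2:25456593-25456842 (plus strand). Capitals would mark a match to 1 of 3 motifs searched on both strands, and there is none in these windows. CACGTG occurs in 6.02% of 32851 windows of this length, TTATGTAA in 0.819% and TGACGTCA in 1.55%.

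Nphs1: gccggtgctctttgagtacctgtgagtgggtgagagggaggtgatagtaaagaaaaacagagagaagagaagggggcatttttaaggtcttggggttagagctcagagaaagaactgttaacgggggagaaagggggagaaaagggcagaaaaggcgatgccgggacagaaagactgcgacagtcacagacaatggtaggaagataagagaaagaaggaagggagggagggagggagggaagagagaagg
Clic3: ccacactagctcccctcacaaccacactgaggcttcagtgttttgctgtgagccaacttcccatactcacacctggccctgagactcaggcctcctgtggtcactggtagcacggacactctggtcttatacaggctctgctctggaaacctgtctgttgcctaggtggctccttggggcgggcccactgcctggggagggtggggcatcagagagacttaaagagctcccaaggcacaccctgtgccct

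More genes were called in sham kidneys than in UUO kidneys, while the spread of differences over all genes was alike. The SD of the log2 difference over the 12882 tested genes was 0.246 in UUO kidneys and 0.246 in sham kidneys. Of the 1914 genes with an unadjusted interaction p under 0.05, 1204 had the larger difference in sham. The share over all tested genes was not computed. Their median difference was also further from 0 in sham kidneys (-0.09) than in UUO kidneys (0.04), so the count does not set these genes apart. The 51 genes that changed in sham kidneys had a median difference of -0.66 there and of 0.07 in UUO kidneys. All 51 had an unadjusted interaction p under 0.05, a measure that shares the sham libraries with their choice. Of them 3 passed for the interaction, Zfp708, Appl2 and Gm28557. Across genes, the differences in the 2 surgeries, which share no library, had a Pearson r of -0.020 and a Spearman rho of -0.033, a description over genes that are not independent replicates.
The sham count moved with single libraries. It was 3, 4 and 5 genes without sham late replicates 2, 4 and 3, 14 without sham late replicate 1, 9 without sham vehicle replicate 1 or 2, 28 and 30 without sham vehicle replicates 3 and 4, 17 without UUO late replicate 3, 33 without UUO vehicle replicate 2, and 95 and 77 without UUO vehicle replicates 1 and 4.

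**Figure D3:**
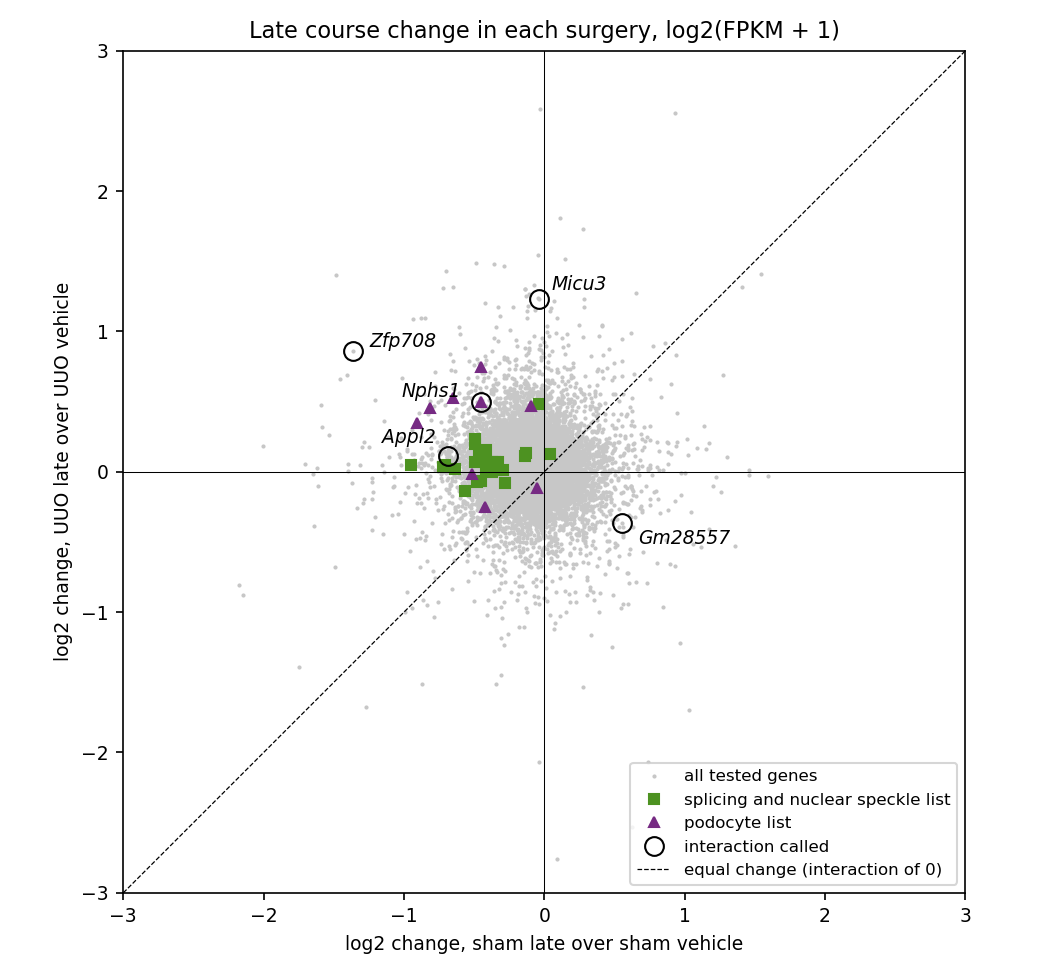
Each tested gene's log2 difference between late course and vehicle in sham kidneys (horizontal) and in UUO kidneys (vertical), on the log2(FPKM + 1) scale, with the dashed line at an interaction of 0. Podocyte genes (triangles) and the 5 called genes apart from Gm28557 lie above the line, Wt1 being the podocyte exception at -0.06, and splicing genes (squares), apart from Tra2b, lie left of 0 near the horizontal axis.

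Genes of RNA splicing were among those that fell in sham late kidneys. Splicing factors cut introns out of new transcripts, and many are stored in nuclear speckles. Of 27 tested genes of the splicing and nuclear speckle list 6 fell in sham late kidneys, beside 0.388% of all genes: Pnn, Ddx17, Ddx5, Srsf2, Srsf6 and Clk1. None rose or fell in UUO late kidneys and none passed for the interaction, while 15 of 27 had an unadjusted interaction p under 0.05 above 0, against 13.5% of all genes. The list's median was 0.43 for the interaction, 0.07 in UUO kidneys and -0.42 in sham kidneys. Its summed level was 888 to 1099 FPKM in UUO late and 905 to 1039 FPKM in UUO vehicle libraries, which overlapped. It was 448 to 471 FPKM in sham late libraries, all below the 590 to 655 FPKM of sham vehicle libraries. In the early course, which shares the vehicle libraries, the summed level was 886 to 1118 FPKM in UUO early libraries. It was 508 to 565 FPKM in sham early libraries, also all below sham vehicle, so a lower level was not particular to the late course.

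Pnn encodes pinin, a speckle protein that takes part in splicing and in cell adhesion. It had 16.3, 13.3, 14.0 and 17.0 FPKM in UUO late and 11.8, 16.5, 14.6 and 15.7 FPKM in UUO vehicle libraries. It had 4.30, 5.76, 6.42 and 5.42 FPKM in sham late and 11.4, 13.4, 10.3 and 10.9 FPKM in sham vehicle libraries. It fell by 0.95 in sham late kidneys (limma, adjusted p = 0.0083), and its interaction was 1.00 (adjusted p = 0.0713).
Ddx17 and Ddx5 encode paired RNA helicases. Ddx17 had 81.0, 68.1, 76.0 and 79.0 FPKM in UUO late and 66.3, 78.1, 69.5 and 79.9 FPKM in UUO vehicle libraries. It had 26.1, 27.6, 25.1 and 24.3 FPKM in sham late and 39.1, 49.7, 42.1 and 40.7 FPKM in sham vehicle libraries. Its sham difference was -0.71 (limma, adjusted p = 0.00815) and its interaction 0.76 (adjusted p = 0.0547). For Ddx5 these were -0.46 (adjusted p = 0.0291) and 0.58 (adjusted p = 0.098). In each of the 3 genes the UUO groups overlapped and the sham late libraries lay below all sham vehicle libraries.
Other genes of RNA processing that fell in sham late kidneys without being in the list, picked out after their values were seen, were Luc7l2, Akap8l, Snrnp70, Hnrnpa3, Hnrnpr and Ncbp1, with log2 differences of -0.60, -0.82, -0.45, -0.66, -0.42 and -0.56.

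The other genes that the naming rule took from the sham side were unlike each other in function. Wsb1, a ubiquitin ligase adaptor, had 66.6, 35.5, 45.1 and 50.6 FPKM in UUO late and 42.8, 43.8, 36.8 and 54.7 FPKM in UUO vehicle libraries. It had 7.15, 7.39, 6.90 and 7.18 FPKM in sham late and 17.3, 15.4, 12.0 and 13.9 FPKM in sham vehicle libraries (sham difference -0.93; limma, adjusted p = 0.0316). Fhl2, a LIM domain cofactor, had 4.10, 3.62, 3.79 and 3.50 FPKM in sham late and 10.0, 7.82, 6.68 and 6.66 FPKM in sham vehicle libraries (-0.87, adjusted p = 0.0488), and one of its transcripts switched between groups. Hoxd4, a homeobox transcription factor, and Palm3, a paralemmin, fell as well (-1.15 and -1.20, adjusted p = 0.0444 and 0.0408). Their interactions were 1.05 for Wsb1, 0.98 for Fhl2, 1.20 for Hoxd4 and 0.88 for Palm3, with adjusted p from 0.116 to 0.263.

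On the UUO side, Clec9a and Ckmt1 rose beside Micu3. Clec9a encodes the receptor with which cross-presenting dendritic cells sense dead cells. It had 4.01, 4.93, 2.84 and 5.25 FPKM in UUO late and 1.67, 0.91, 0.636 and 1.54 FPKM in UUO vehicle libraries. It had 0.492, 0.112, 0.117 and 0.465 FPKM in sham late and 0.599, 0.218, 0.458 and 0.292 FPKM in sham vehicle libraries. The rise in UUO kidneys was 1.27 (limma, adjusted p = 0.0264) and the interaction 1.38 (adjusted p = 0.0932). Of 7 tested dendritic cell genes 4 had an unadjusted interaction p under 0.05, all above 0, against 13.5% of all genes. Among them were Itgax, the CD11c integrin (0.84, adjusted p = 0.23), and Xcr1, a chemokine receptor of the same cells (0.55, adjusted p = 0.263). Ccr7, the homing receptor of mature dendritic cells, had -0.43 (adjusted p = 0.636). The list summed to 31.4 to 50.7 FPKM in UUO late and 20.6 to 34.5 FPKM in UUO vehicle libraries, which overlapped, and to 1.70 to 3.01 FPKM in sham late and 2.80 to 3.57 FPKM in sham vehicle libraries.
Ckmt1 encodes a mitochondrial creatine kinase. It had 38.1, 34.9, 27.6 and 32.8 FPKM in UUO late libraries, all above the 17.4, 19.2, 14.7 and 22.2 FPKM of UUO vehicle libraries. It had 25, 28.1, 26.8 and 21.4 FPKM in sham late and 24.1, 25.3, 24.1 and 25 FPKM in sham vehicle libraries. The UUO rise was 0.83 (limma, adjusted p = 0.0264) and the interaction 0.80 (adjusted p = 0.116). Neither Clec9a nor Ckmt1 passed in UUO kidneys without the 2 libraries that stand apart, with differences of 1.18 and 0.84 (limma, adjusted p = 0.07 each). Of the 4 genes called there, 1 was higher, Micu3, and 3 were lower. Without 3 libraries 13 genes were called, 7 higher and 6 lower, and Micu3 alone of the 3 was among them (adjusted p = 0.0777 for both Clec9a and Ckmt1). Both missed the threshold as well without UUO vehicle replicate 3 (adjusted p = 0.079) or UUO late replicate 2 (adjusted p = 0.0924), and Ckmt1 did without UUO vehicle replicate 1 (adjusted p = 0.0628). With a pseudocount of 0.1 Clec9a missed it (limma, adjusted p = 0.226). With median-of-ratios scaling both missed it (limma, adjusted p = 0.0586 for Clec9a and 0.0523 for Ckmt1). The count of 3 in UUO kidneys was 1 without sham vehicle replicate 2, sham vehicle replicate 3 or sham late replicate 1. It was 16, 9 and 8 without UUO late replicates 1, 3 and 4, and 5, 10 and 14 without UUO vehicle replicates 1, 2 and 4.

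Intercalated cells, the acid and base secreting cells of the collecting duct, had a list with a median above 0 in UUO kidneys and below 0 in sham kidneys. All 10 genes were tested, none passed, and 6 had an unadjusted p under 0.05 above 0, against 13.5% of all genes. The median was 0.63 for the interaction, 0.44 in UUO kidneys and -0.14 in sham kidneys. Hepacam2 had 3.24, 2.85, 2.59 and 3.59 FPKM in UUO late and 1.29, 1.99, 1.88 and 1.85 FPKM in UUO vehicle libraries, with no overlap. It had 1.69, 2.12, 2.07 and 2.16 FPKM in sham late and 1.85, 2.20, 2.39 and 2.01 FPKM in sham vehicle libraries (interaction 0.61; limma, adjusted p = 0.139). The interaction was 0.68 for Foxi1, their master transcription factor (adjusted p = 0.202), and 0.79 for Atp6v0d2, a proton pump subunit (adjusted p = 0.227). The list summed to 160.6, 113.1, 101.0 and 124.5 FPKM in UUO late and 65.1, 77.9, 96.3 and 110.3 FPKM in UUO vehicle libraries, which overlapped. It summed to 155.8 to 180.1 FPKM in sham late libraries, all below the 182.8 to 213.6 FPKM of sham vehicle libraries.

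Endothelial genes had a median below 0 in sham kidneys and near 0 in UUO kidneys. Of 11 tested genes none passed for the interaction, 4 had an unadjusted p under 0.05 above 0, against 13.5% of all genes, and 8 had an unadjusted p under 0.05 below 0 in sham kidneys, against 14.2% of all genes. The median was 0.51 for the interaction, 0.03 in UUO kidneys and -0.55 in sham kidneys. Flt1, a VEGF receptor, had 3.63, 3.92, 4.40 and 3.83 FPKM in UUO late and 3.80, 3.28, 3.65 and 3.77 FPKM in UUO vehicle libraries. It had 1.90, 2.44, 2.00 and 2.09 FPKM in sham late and 2.99, 5.87, 3.88 and 3.01 FPKM in sham vehicle libraries (interaction 0.73; limma, adjusted p = 0.169). Tie1 and Emcn, endothelial surface genes, had interactions of 0.74 and 0.77 (adjusted p = 0.27 and 0.283). The list summed to 135 to 308 FPKM in UUO late and 199 to 247 FPKM in UUO vehicle libraries, and to 91.5 to 126 FPKM in sham late and 124 to 199 FPKM in sham vehicle libraries. Relative to all genes its median was 0.37, and 0.18 without both libraries that stand apart. Adipocyte markers moved with the sham groups too, at 7.87 to 14.6 FPKM in sham late and 10.4 to 110 FPKM in sham vehicle libraries, and their part in the sham results was not tested. Their median interaction was 1.06, made of 0.17 in UUO kidneys and -1.11 in sham kidneys, and 0 of 6 tested genes passed.

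**Figure D4:**
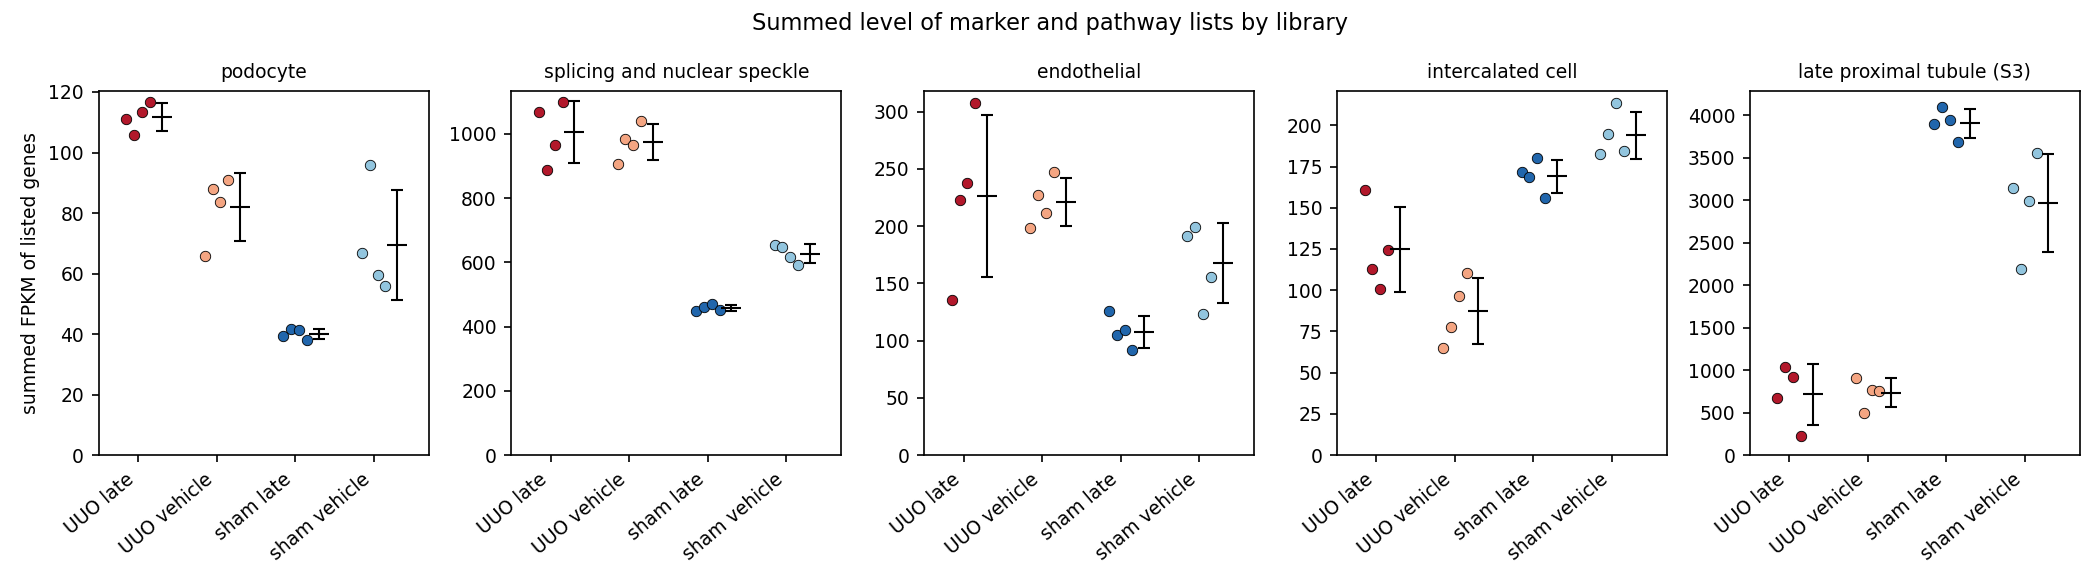
Summed FPKM of listed genes (linear axis from 0, one scale per list) in each library of UUO late, UUO vehicle, sham late and sham vehicle for 5 lists, with bars for mean and SD (n = 4). Podocyte genes are above vehicle in UUO late (105.7 to 116.6 against 65.8 to 91.0) and below it in sham late (37.9 to 41.5 against 55.8 to 95.7), and splicing genes are below vehicle in sham late (448 to 471 against 590 to 655).

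Proximal tubule genes had the most negative list medians, and these shrank without UUO late replicate 4. None of 25 proximal tubule genes passed, 2 had an unadjusted p under 0.05 below 0 (1.31% of all genes did), and the median was -0.52. It was made of -0.31 in UUO kidneys and 0.14 in sham kidneys. None of 15 genes of the late proximal tubule (S3) passed, 2 had an unadjusted p under 0.05 below 0, and the median was -0.68. It was made of -0.27 in UUO kidneys and 0.46 in sham kidneys. The S3 list summed to 3680 to 4100 FPKM in sham late libraries, all above the 2190 to 3560 FPKM of sham vehicle libraries. It summed to 228 to 1040 FPKM in UUO late and 498 to 906 FPKM in UUO vehicle libraries, which overlapped. Relative to all genes the interaction medians of the lists were -0.65 and -0.82, but -0.25 each without UUO late replicate 4. They were -0.13 and -0.22 without UUO late replicate 4 and sham vehicle replicate 2. Slc5a12, a lactate transporter, had 2.14, 6.49, 5.23 and 3.39 FPKM in UUO late and 8.53, 6.72, 7.53 and 5.39 FPKM in UUO vehicle libraries. It had 14.0, 16.4, 14.4 and 20.4 FPKM in sham late and 7.16, 5.06, 7.63 and 15.9 FPKM in sham vehicle libraries (interaction -1.55; limma, adjusted p = 0.168). Slc34a1, the phosphate transporter, had an interaction of -0.68 (adjusted p = 0.52) and Lrp2, the endocytic receptor megalin, of -0.31 (adjusted p = 0.699). Without UUO late replicate 4 these were -0.26 and 0.04.

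**Figure D5:**
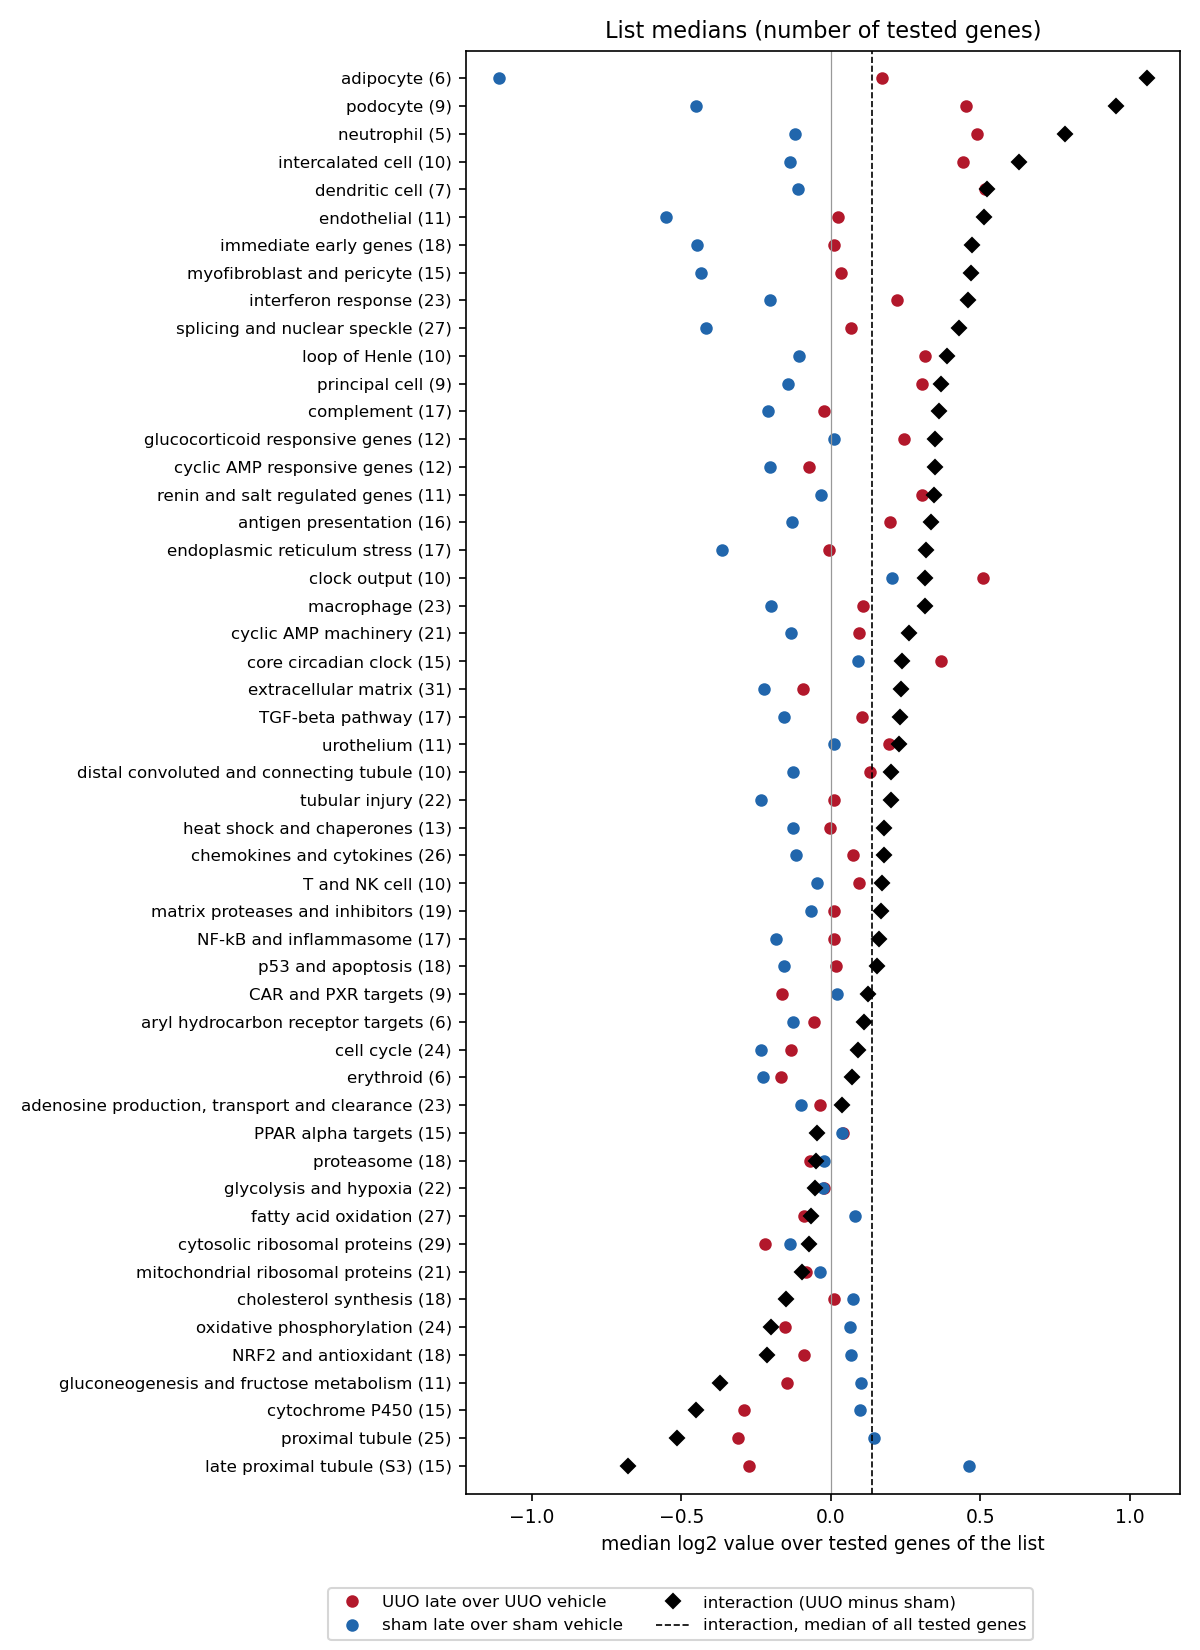
Median log2 value over the tested genes of each list with 5 or more, for the difference in UUO kidneys, the difference in sham kidneys and the interaction, on the log2(FPKM + 1) scale. The dashed line is the median interaction of all 12882 tested genes (0.14). The adipocyte list stands highest at 1.06, the podocyte list at 0.95 and the neutrophil list at 0.78. Each of them, like other lists, has the differences in the 2 surgeries on opposite sides of 0. The late proximal tubule list stands at -0.68.

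Genes that did not overlap in either surgery and moved in opposite directions numbered 36 (0.279% of those tested) for up in UUO late with down in sham late, and 0 for the reverse (0%). A further 7 were up in both (0.0543%) and 25 down in both (0.194%). Single surgeries gave more: UUO late libraries lay all above UUO vehicle for 3.12% of genes and all below for 1.23%, and sham late libraries lay all above sham vehicle for 2.07% and all below for 12.3%. Whether 36 is more than these shares would give in unrelated surgeries was not tested. The count is therefore no sign that opposite movement was common. Beside Podxl and Clic3, the genes named here are Sema3g, Sned1, Lrch3, Ap1ar and Kansl3, none past the threshold. Sema3g, a secreted semaphorin of podocytes and vessels, had 13.8, 12.9, 12.9 and 15.4 FPKM in UUO late and 9.06, 11.9, 9.95 and 11.4 FPKM in UUO vehicle libraries. It had 6.26, 7.58, 6.70 and 6.19 FPKM in sham late and 9.20, 12.0, 10.8 and 8.38 FPKM in sham vehicle libraries (interaction 0.87; limma, adjusted p = 0.0843). Sned1, a matrix protein gene, had 5.16, 5.03, 4.65 and 7.60 FPKM in UUO late and 1.57, 3.47, 2.08 and 4.21 FPKM in UUO vehicle libraries. It had 1.28, 1.07, 1.17 and 1.10 FPKM in sham late and 2.04, 1.53, 1.61 and 2.44 FPKM in sham vehicle libraries (interaction 1.25, adjusted p = 0.116). The interaction was 0.63 for Lrch3, 0.68 for Ap1ar and 1.39 for Kansl3. Without UUO vehicle replicate 4 it was 0.36 for Ap1ar and 0.92 for Kansl3. That library had 1.62 FPKM of Ap1ar, against 5.21 to 5.55 FPKM in the other 3. Kansl3, part of a histone acetyltransferase complex, was at 2.22 FPKM in UUO vehicle replicate 4 against 10.1 to 11.4 FPKM in the other 3, and at 3.34 FPKM in sham late replicate 2 against 9.30 to 11.9 FPKM in the other 3.

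Targets of the drug's own pathway showed no called interaction. Adora2a, which encodes the receptor that the drug blocks, had 2.62, 3.92, 3.10 and 4.68 FPKM in UUO late and 3.06, 3.36, 3.70 and 4.31 FPKM in UUO vehicle libraries. It had 0.483, 0.343, 0.463 and 0.539 FPKM in sham late and 1.06, 1.04, 0.755 and 0.555 FPKM in sham vehicle libraries. The interaction was 0.32 (SE 0.20; limma, adjusted p = 0.446). Those of Adora2b and Adora1, other adenosine receptors, were 0.06 (adjusted p = 0.936) and 0.37 (adjusted p = 0.615). Nt5e, the ectoenzyme CD73 that makes adenosine, had 0.34 (adjusted p = 0.56). Leaving out single libraries took these values to 0.21 for Adora2a (without UUO late replicate 4), 0.18 for Adora1 (without sham vehicle replicate 1) and 0.19 for Nt5e (without UUO vehicle replicate 4), and Adora2b lay on both sides of 0.
Clock genes had no called interaction either. Of 15 core clock genes 4 had an unadjusted p under 0.05 above 0, against 13.5% of all genes, and none passed. They were led by Nr1d1, a transcriptional repressor (1.10; limma, adjusted p = 0.186), and Per3, a period gene (0.88, adjusted p = 0.189). Nr1d1 had 28.5, 38.7, 31.6 and 46.5 FPKM in UUO late and 17.6, 24.9, 19.8 and 24.5 FPKM in UUO vehicle libraries. It had 37.2, 23.1, 25 and 16.1 FPKM in sham late and 35.1, 24.3, 33.1 and 37.8 FPKM in sham vehicle libraries. In UUO kidneys 7 of the 15 genes were higher at an unadjusted p under 0.05, against 6.32% of all genes. The core clock median was 0.24 for the interaction, 0.37 in UUO kidneys and 0.09 in sham kidneys. The list summed to 153 to 177 FPKM in UUO late, all above the 113 to 149 FPKM of UUO vehicle libraries. The sham groups overlapped, at 98.8 to 123 and 97.0 to 134 FPKM. Relative to all genes the core clock median of the interaction was 0.10, and -0.02 without both libraries that stand apart.

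Injury and fibrosis genes that obstruction is known for were not called either. Havcr1, the tubular injury marker KIM-1, had 168, 230, 220 and 92.5 FPKM in UUO late and 370, 339, 309 and 195 FPKM in UUO vehicle libraries, and was under 2 FPKM in every sham late and sham vehicle library. Its interaction was -0.65 (SE 0.39; limma, adjusted p = 0.433). The collagen genes Col1a1 and Col3a1 had 0.13 each, Fn1 (fibronectin) 0.52, Acta2 (smooth muscle actin of myofibroblasts) 0.34 and Tgfb1 (the profibrotic growth factor) 0.12. Lcn2, an injury marker of the distal nephron, had 0.67, Vcam1 (an adhesion molecule) 0.29 and Spp1 (osteopontin) -0.18. The water channel gene Aqp2 had 0.59 and Umod (uromodulin) 0.14. Single libraries moved each of these values by over 1.5 times. Without UUO late replicate 4 they were -0.37 for Havcr1, 0.24 for Fn1, 0.10 for Acta2, 0.00079 for Tgfb1 and 1.16 for Aqp2. The value was 0.27 for Lcn2 without sham vehicle replicate 2, 0.15 for Vcam1 without UUO vehicle replicate 4, -0.08 for Spp1 without sham late replicate 3 and 0.23 for Aqp2 without UUO late replicate 1, and Col1a1, Col3a1 and Umod lay on both sides of 0. A p that misses the threshold does not show that these genes changed alike in the 2 surgeries.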

How the data were processed

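Stranded RNA libraries were prepared from left kidneys extracted in Trizol, according to the labels. The authors deposited FPKM for genes and for transcripts, and vehicle libraries take their replicate numbers from the tables' column names. The submitters' processing notes name cutadapt, HISAT2, StringTie and GRCm38 without versions. Counts are not used here, and depth was estimated from the smallest steps of the transcript table. Genes reaching 1 FPKM in 4 or more of the 16 libraries were tested as log2(FPKM + 1), which understates changes of low genes, with limma 3.58.1 in R 4.3.3. The fit had 1 mean per group, 12 residual degrees of freedom, a mean-variance trend, two-sided tests and Benjamini-Hochberg adjustment over all tested genes. "Rose" and "fell" mean an adjusted p under 0.05. The fit was also run on simulated data with independent normal noise. Such data hold no outlying libraries, so no support for the calls is drawn from that run. A transcript was said to switch if 3 libraries of late course or vehicle had no more than 0.05 FPKM while 3 of the other, same surgery, had no less than 0.5 FPKM. Named genes were all called interaction genes, the 6 largest called changes per direction in each surgery with a mean of at least 5 FPKM and no overlap, 3 genes of smallest interaction p in each described list, the 8 largest opposite movers, and a set of adenosine, injury and fibrosis genes. Some genes of these rules and lists are not reported here. The members and lists were chosen with earlier results of these data known. Alternatives covered pseudocount, filter, scaling, libraries, weights, the replicate number as a block, and each library left out. Leaving out genes with a switching transcript, and leaving out 2 or 3 libraries that stand apart, were added after seeing the data. Coordinates are GRCm38, and promoters are from RefSeq.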

Additional observations from a re-analysis of the deposited data

Results flagged for a closer look

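The late course had a tested difference between surgeries in 5 genes, with interactions of 1.27 for Micu3, 2.22 for Zfp708, 0.80 for Appl2, 0.95 for Nphs1 and -0.92 for Gm28557. A further 7 named genes moved in opposite directions in all libraries of the 2 surgeries. They were picked for that pattern from 36 such genes (0.279% of those tested), so the pattern itself is no result about them. Their interaction was tested and did not pass: Kansl3 1.39, Podxl 1.26, Sned1 1.25, Clic3 1.20, Sema3g 0.87, Ap1ar 0.68 and Lrch3 0.63.

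Among 230 groups of 4 libraries, 10 held a library far from the other 3 for a named gene, where chance gives 11.5 at 1 in 20. Sham vehicle replicate 2 had 7.17 FPKM of Lcn2 (others 1.29 to 2.18), 1.00 of Fn1 (others 1.38 to 1.44) and 508 of Slc34a1 (others 893 to 950). Sham vehicle replicate 3 had 4.58 FPKM of Col1a1 (others 2.24 to 2.51) and 16.2 of Kansl3 (others 12.3 to 12.9). Sham vehicle replicate 1 had 2.61 FPKM of Tgfb1 (others 1.93 to 1.99), and sham vehicle replicate 4 had 14.2 of Foxi1 (others 11.8 to 12.2). UUO vehicle replicate 4 had 2.22 FPKM of Kansl3 (others 10.1 to 11.4) and 1.62 of Ap1ar (others 5.21 to 5.55). Sham late replicate 2 had 7.97 FPKM of Acta2 (others 9.97 to 10.3). What set these libraries apart was not tested.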

How the results depend on the processing

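For the interaction, 5 genes in the fit reported, the count was 8 with a pseudocount of 0.1, 1 with FPKM of 1 or more required in 8 libraries, 37 with sample weights, 1 without genes that have a switching transcript, 1 without the 2 or 3 libraries that stand apart, and 2 to 35 leaving out single libraries (2 without sham late replicate 2, 35 without UUO vehicle replicate 4). The 3 genes of UUO kidneys became 6 with a pseudocount of 5, 0 with the 8-library filter (limma; 1104 at an unadjusted p under 0.05), 1 with median-of-ratios scaling, 16 with all 24 libraries, 16 with sample weights, 4 without the 2 libraries that stand apart (1 higher and 3 lower, 1 shared with the 3), 13 without 3 libraries (7 higher and 6 lower, 1 shared), and 1 to 16 leaving out single libraries. The 51 genes of sham kidneys became 172 and 24 with pseudocounts of 0.1 and 5, 11 with median-of-ratios scaling, 188 with all 24 libraries, 627 with sample weights, 16 without the 2 libraries that stand apart, 12 without 3, and 3 to 95 leaving out single libraries. Correlations gave no sign that replicate numbers pair the libraries: 2 of 24 same-number pairs correlated over 0.1, and 2 of 16 libraries correlated best with their own number. Low correlations cannot show that the libraries were unpaired, and the labels do not say. With the replicate block 2 genes passed for the interaction and 4 in sham kidneys.

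Of 1761 values of 59 named genes under alternatives, 1681 kept direction and side of the threshold, 43 no longer passed, 15 newly passed and 22 changed sign, all of genes never past the threshold. Adora2b was -0.024 with a pseudocount of 5, -0.021 with median-of-ratios scaling, -0.17 without the 2 libraries, -0.16 without 3 and -0.075 to 0.26 leaving out single libraries. Col1a1 was -4.9e-05, Col3a1 -0.044 with a pseudocount of 5, and -0.12 and -0.033 without the 2 libraries, with -0.16 to 0.40 and -0.11 to 0.39 leaving out single libraries. Lrp2 was -0.46 to 0.044 and Umod -0.013 with median-of-ratios scaling and -0.021 to 0.36 leaving out single libraries. Leaving out single libraries moved the interaction of 21 of the 59 genes by over 1.5 times, 0 of them past the threshold with all libraries. The causes were not tested. Read counts are not used here, so no counting interval stands behind low values such as those of Micu3 and Zfp708.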
